A study of Mus musculus with 22 samples.

Results

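Apolipoproteins are the protein components of lipoprotein particles, and the liver makes most of those found in plasma. Transcripts of 10 apolipoprotein genes (Apoa1, Apoa2, Apoa4, Apoa5, Apob, Apoc1, Apoc3, Apoe, Apoh and Apom) were followed in cultured mouse liver cells. They were taken by gene symbol, and all 10 were found once each among 55401 genes measured in hepatocytes and among 55573 genes measured in hepatic stellate cells. All cells came from wild type C57BL/6 mice on chow diet. Hepatocytes, the main cells of the liver, were grown on collagen-coated plates in Williams Medium E, and stellate cells, the pericytes of the liver sinusoid, in DMEM, both with 10% FBS. After 24 h of plating, hepatocytes received placebo (6 libraries) or 100 uM DFO, the iron chelator deferoxamine (6 libraries), and stellate cells received placebo (5 libraries) or 100 uM iron (5 libraries). Treatment lasted 24 h. The protocol speaks of 4 biological replicates per group and of a small RNA library kit, whereas 6 and 5 libraries per group are listed. No label says that libraries of a group came from separate animals or cultures, so p-values measure the spread between libraries, which may be technical.

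Apob is the structural protein around which triglyceride-rich particles are built in the hepatocyte, and it stays with its particle for life. The other apolipoproteins exchange between particles: Apoa1 and Apoa2 form the scaffold of high-density lipoprotein (HDL), Apom carries sphingosine-1-phosphate on HDL, and Apoe is the ligand through which remnant particles are taken up. Apoc3 restrains and Apoa5 promotes the clearance of plasma triglyceride by lipoprotein lipase, while Apoh is a phospholipid-binding plasma protein.

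Apoa1, Apoc3, Apoa4 and Apoa5 lie side by side on chromosome 9, and Apoc1 and Apoe lie beside Apoc4 and Apoc2 on chromosome 7. Apoa1 and Apoa5 mark the outer ends of the chromosome 9 group and moved in opposite directions in the hepatocytes, so the sequences before their starts are shown. Both come from RefSeq (GRCm38.p6, plus strand, 5′ to 3′), which held an entry for 8 of the 10 genes. Each is cut to the bases before the gene start of the deposited tables, 200 bases for Apoa1 (chr9:46228380-46228579) and 250 bases for Apoa5 (chr9:46268383-46268632). Both strands were searched for ACGTG and GCGTG (the core letters bound by hypoxia-inducible factor), TATAAA (the TATA box), and CAAAGG and CAAAGTC (letters found in nuclear receptor elements such as that of HNF4). Capitals mark every match.
Apoa1: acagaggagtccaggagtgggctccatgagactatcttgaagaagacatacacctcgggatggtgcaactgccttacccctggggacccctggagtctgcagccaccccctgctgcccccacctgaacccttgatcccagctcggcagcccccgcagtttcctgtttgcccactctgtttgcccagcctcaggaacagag
Apoa5: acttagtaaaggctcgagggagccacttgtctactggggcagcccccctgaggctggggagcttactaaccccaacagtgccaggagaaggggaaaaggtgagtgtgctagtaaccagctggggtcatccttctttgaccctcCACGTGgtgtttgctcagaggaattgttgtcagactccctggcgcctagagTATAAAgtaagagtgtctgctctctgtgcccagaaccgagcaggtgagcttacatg

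The Apoa1 window held none of the 5 motifs. In the Apoa5 window ACGTG occurred on both strands within the same palindrome, with first bases at −107 and −106 from the gene start, and TATAAA began at −56. Among windows of 250 bases before the starts of 32851 RefSeq entries, 16.6% held ACGTG and 12.4% held TATAAA, so such matches are common. GCGTG was present in 28.2%, CAAAGG in 17.6% and CAAAGTC in 3.84% of those windows. In windows of 200 bases the shares were 12.9% for ACGTG, 22.6% for GCGTG, 9.14% for TATAAA, 14.6% for CAAAGG and 3.13% for CAAAGTC. A match is a run of letters, and no binding was measured.

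Levels are given as the authors' FPKM (counts per kilobase of exonic length, scaled to the total count of the library), which allows genes of different length to be set side by side. Depth ranged from 19342490 to 41839154 counts in a hepatocyte library and from 12058226 to 32067635 in a stellate one. Hepatocyte library DFO 6 had a mean exonic length of 4.73 kb per count, against 5.02 to 5.36 kb in the other 5 DFO libraries and 5.04 to 5.30 kb in controls. Among stellate libraries, control 3 (7.23 kb), iron 3 (4.27 kb) and iron 5 (4.02 kb) stood apart from the other 7 (5.16 to 5.69 kb), and iron 5 had a count for 12535 genes, against 18753 or more elsewhere. Stellate results are therefore given with all 10 libraries and with these 7 (4 control, 3 iron).

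In control hepatocytes Apoe was the most abundant member at 1883 ± 138 FPKM (SD, n = 6) and held 65.1% ± 1.07 of the summed FPKM of the 10 genes. Apoa1 followed at 297.1 ± 15.8, then Apoc1 at 208.7 ± 11.9, Apob at 188.2 ± 23.8 and Apoa2 at 129.1 ± 6.76 FPKM. Apoc3 (60.4 ± 1.32), Apom (57.5 ± 5.14) and Apoh (54.3 ± 4.48 FPKM) formed a middle tier. Apoa5 stood at 9.88 ± 1.23 and Apoa4 at 3.75 ± 0.40 FPKM. Between neighbours in this order, the ranges of libraries overlapped for Apoc1 with Apob, Apoc3 with Apom and Apom with Apoh, and were apart for the other 6 pairs. After DFO the mean of Apom (14.8 FPKM) was below that of Apoa5 (17.1 FPKM), with overlapping ranges, and the 10 genes together held 0.613% ± 0.0223 of all counts, against 0.748% ± 0.0423 in controls.

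The first comparison addressed how apolipoprotein transcripts respond when hepatocytes are deprived of iron. With DFO, 3 of the 10 genes rose (Apoa5, Apoa4, Apoc3) and 6 fell (Apom, Apoa1, Apoc1, Apob, Apoa2, Apoh) at an adjusted p under 0.05 (edgeR's quasi-likelihood test on counts, Benjamini-Hochberg over 15660 genes). DFO changed much of the transcriptome: 58.0% of all genes tested passed in either direction, 27.9% higher and 30.1% lower. The members' median log2 change was −0.29, against 0.00 over all genes. Control and DFO libraries did not overlap for 3 members, Apom, Apoa1 and Apoa5, and for 35.9% of all genes tested. In bulk RNA, fewer cells of a type and less RNA per cell cannot be told apart.

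**Figure D1:**
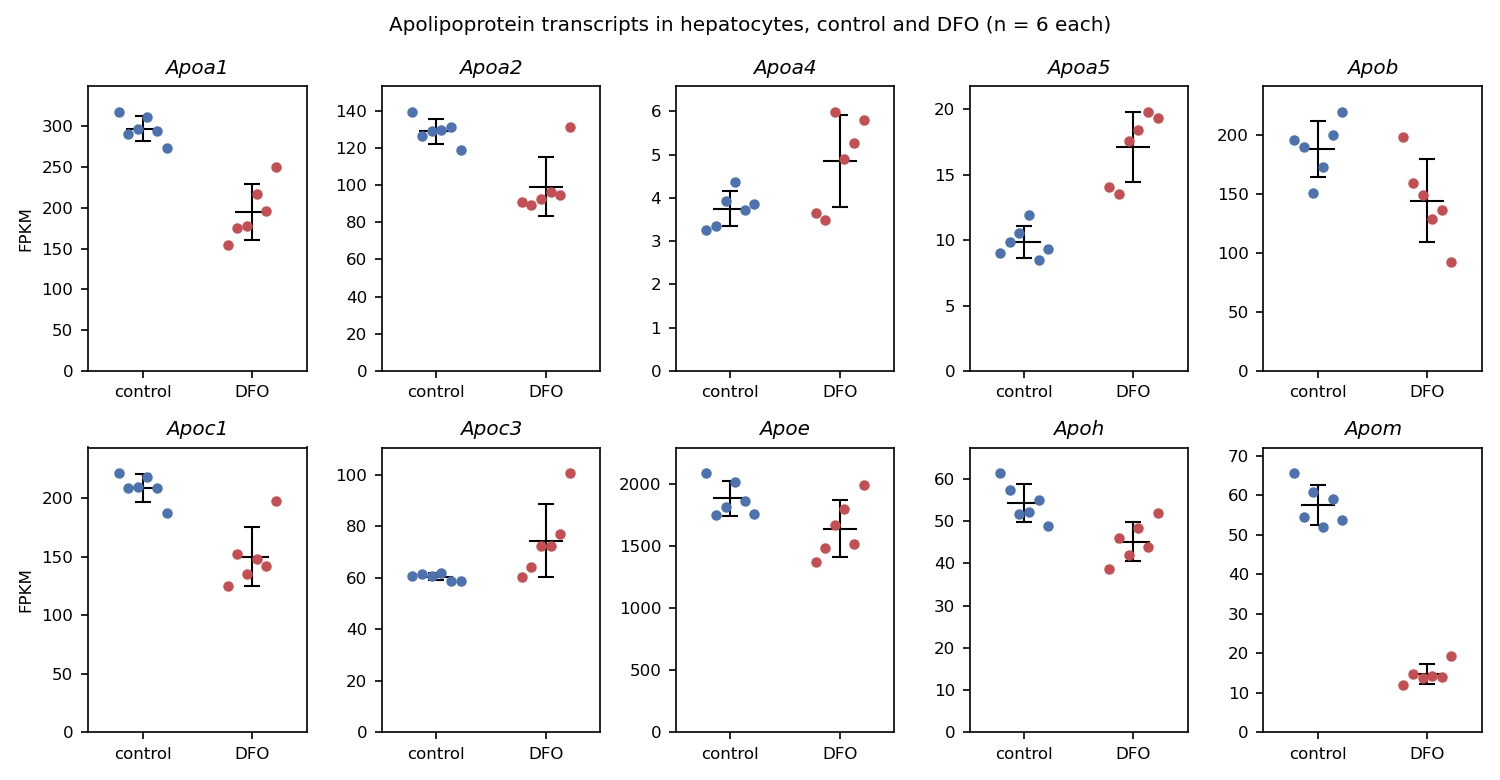
FPKM of each apolipoprotein gene (y axis, linear, starting at 0) in the 6 control (blue) and 6 DFO (red) hepatocyte libraries; points are libraries, the bar is the mean and the whiskers are 1 SD. The DFO points of Apom (11.95 to 19.4 FPKM) lie far below its controls (51.9 to 65.5 FPKM), those of Apoa1 lie below and those of Apoa5 above their controls without overlap, and the points of the other 7 genes overlap.

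Among the HDL proteins, Apom (chromosome 17, 35128997 to 35132050, minus strand, mm10) changed most. Its controls ran from 51.9 through a median of 56.6 to 65.5 FPKM, and its DFO libraries from 11.95 through 14.2 to 19.4 FPKM. Every DFO library was thus below every control. The log2 change was −1.92 ± 0.10 (SE; edgeR adjusted p = 2.94e-11), so that the level fell by 73.6%, and Apom ranked 65 from the most negative of the 15660 genes tested. Apoa1 (chromosome 9, 46228580 to 46230466, plus strand), the main HDL scaffold, ran from 273 through 295 to 318 FPKM in controls and from 154 through 187 to 250.02 FPKM with DFO. The groups did not overlap, and the log2 change was −0.57 ± 0.09 (edgeR adjusted p = 6.00e-05). Apoa2 (chromosome 1, 171225054 to 171226379), the other scaffold protein, ran from 119 through 129 to 139 FPKM in controls and from 89.5 through 93.6 to 131 FPKM with DFO. Here 5 DFO libraries lay below all controls and the highest, DFO 6, lay among them. Apoa2 had a log2 change of −0.34 ± 0.08 (edgeR adjusted p = 0.00214), and −0.44 without DFO 6.

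The HDL members did not keep their proportions. Within each library, the ratio of Apom to Apoa1 fell from 0.194 ± 0.0149 to 0.0759 ± 0.00617 (SD, n = 6 each; exact two-sided permutation test p = 0.00216, the smallest this design can give). All 12 ratios tested in both cell types were adjusted together, which gave an adjusted p of 0.00649 for this ratio. The ratio of Apoa1 to Apoa2 went from 2.30 ± 0.0539 to 1.97 ± 0.185 (exact permutation p = 0.00433; adjusted p = 0.00866), with overlapping groups.

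Apob (chromosome 12, 7977648 to 8016835, plus strand), the core of very-low-density lipoprotein, ran from 150.5 through 193 to 219.7 FPKM in controls and from 92.5 through 143 to 198.5 FPKM with DFO. The groups overlapped, and the lowest value was that of DFO 6. The log2 change was −0.35 ± 0.13 (edgeR adjusted p = 0.0291). This call was lost when control 1 (adjusted p = 0.0554), control 5 (0.0537), control 6 (0.0663), DFO 4 (0.0579) or DFO 5 (0.0525) was left out, each by the same edgeR fit. Without DFO 6 the log2 change was −0.25 and the call was kept (adjusted p = 0.0272).

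Apoe (chromosome 7, 19696109 to 19699188, minus strand) ran from 1754 through 1841 to 2085 FPKM in controls and from 1375 through 1593 to 1990.4 FPKM with DFO. The groups overlapped, with DFO 1, DFO 2, DFO 3 and DFO 5 below every control. The log2 change of −0.16 ± 0.08 did not pass the threshold (edgeR adjusted p = 0.104). It passed without DFO 6 (−0.23; adjusted p = 0.00695), with limma on log2(FPKM + 1) (−0.21; 0.0497) and with library weights (−0.20; 0.0118). Since other members fell further, Apoe made up 68.6% ± 1.79 of the summed FPKM with DFO. Apoh (chromosome 11, 108343354 to 108414396, plus strand) ran from 48.8 through 53.5 to 61.3 FPKM in controls and from 38.7 through 44.9 to 51.8 FPKM with DFO, with overlap. Its log2 change was −0.23 ± 0.08 (edgeR adjusted p = 0.0153). Apoh overlaps Prkca on the opposite strand, a gene with 16741 counts over the 12 libraries against 32902 for Apoh. Whether counting used strand is not given in the sources used here, and without strand the reads where these 2 genes overlap cannot be told apart.

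Apoa5 and Apoc3, which act on triglyceride clearance in opposite ways, both rose. Apoa5 (chromosome 9, 46268633 to 46271919, plus strand), which promotes clearance, ran from 8.52 through 9.61 to 11.9 FPKM in controls and from 13.5 through 18.0 to 19.8 FPKM with DFO. Every DFO library was above every control, and the log2 change was 0.84 ± 0.10 (edgeR adjusted p = 2.36e-06). Apoc3 (chromosome 9, 46232933 to 46235636, minus strand), which restrains clearance, ran from 58.8 through 60.6 to 61.8 FPKM in controls and from 60.1 through 72.4 to 100.5 FPKM with DFO. Its controls were tightly grouped, while the DFO libraries spread widely, with DFO 6 the highest. Apoc3 had a log2 change of 0.34 ± 0.09 (edgeR adjusted p = 0.00487), and 0.23 without DFO 6.

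Apoa4 (chromosome 9, 46240696 to 46243459, plus strand), a protein of chylomicrons and HDL, was the least abundant member. It ran from 3.27 through 3.80 to 4.37 FPKM in controls and from 3.49 through 5.09 to 5.99 FPKM with DFO. The groups overlapped, with 4 DFO libraries above all controls, and the log2 change was 0.41 ± 0.13 (edgeR adjusted p = 0.0101). Apoc1 (chromosome 7, 19689481 to 19692660, minus strand), a small protein that hinders remnant uptake, ran from 187 through 209 to 221 FPKM in controls and from 125 through 145 to 197 FPKM with DFO. Only DFO 6 reached the range of the controls. The log2 change of Apoc1 was −0.44 ± 0.09 (edgeR adjusted p = 0.000427).

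**Figure D2:**
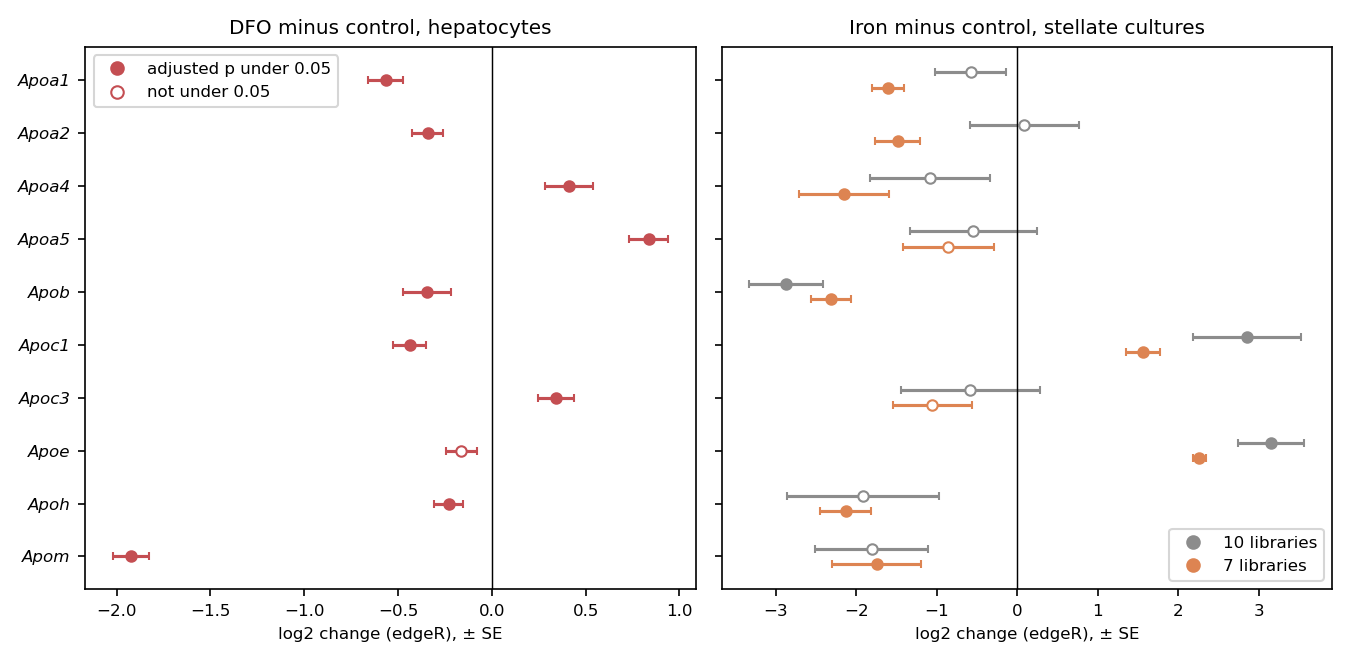
Log2 change of each apolipoprotein gene (x axis) with its SE, from edgeR, for DFO against control hepatocytes (left, 12 libraries) and iron against control stellate cultures (right, grey for 10 and orange for 7 libraries). Filled points have an adjusted p under 0.05: 9 genes on the left, 3 on the right with 10 libraries and 8 with 7 libraries.

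The 4 genes of the chromosome 9 group, which span 43.34 kb, did not move together. Apoa1 fell, while Apoc3, its nearest neighbour and on the opposite strand, rose, as did Apoa4 and Apoa5. Under all 8 other settings run on the 12 libraries these 4 genes kept their calls and directions, with log2 changes of −0.64 to −0.55 for Apoa1 and 0.26 to 0.36 for Apoc3. The ratio of Apoa1 to Apoc3 was 4.92 ± 0.22 in controls (4.65 to 5.24) and 2.63 ± 0.20 with DFO (2.46 to 3.00), without overlap (exact permutation p = 0.00216; adjusted p = 0.00649). This ratio was tight in both groups and in DFO 6 lay within the range of the other DFO libraries. Apoa1 and Apoc3 were called in opposite directions in the same 12 libraries, so the p-values of their ratio add no separate support. Apoa5 relative to Apoc3 went from 0.163 ± 0.0177 to 0.232 ± 0.0254 (exact permutation p = 0.00433; adjusted p = 0.00866), with overlapping groups.

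The 4 genes of the chromosome 7 group (27.61 kb) all had negative log2 changes. Apoc2, the cofactor that lipoprotein lipase needs, ran from 1.91 through 2.08 to 3.06 FPKM in controls and from 0.75 through 0.895 to 1.47 FPKM with DFO. Apoc4, a minor component of triglyceride-rich particles, ran from 20.4 through 22.1 to 23.3 FPKM in controls and from 8.55 through 10.9 to 13.98 FPKM with DFO. Control and DFO libraries were apart for both genes. The log2 changes were −1.07 ± 0.19 for Apoc2 (edgeR adjusted p = 0.000117) and −0.97 ± 0.10 for Apoc4 (edgeR adjusted p = 1.85e-07). The ratio of Apoc1 to Apoe, the neighbours at the other end, fell from 0.111 ± 0.00532 to 0.0916 ± 0.00899, without overlap (exact permutation p = 0.00216; adjusted p = 0.00649).

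**Figure D3:**
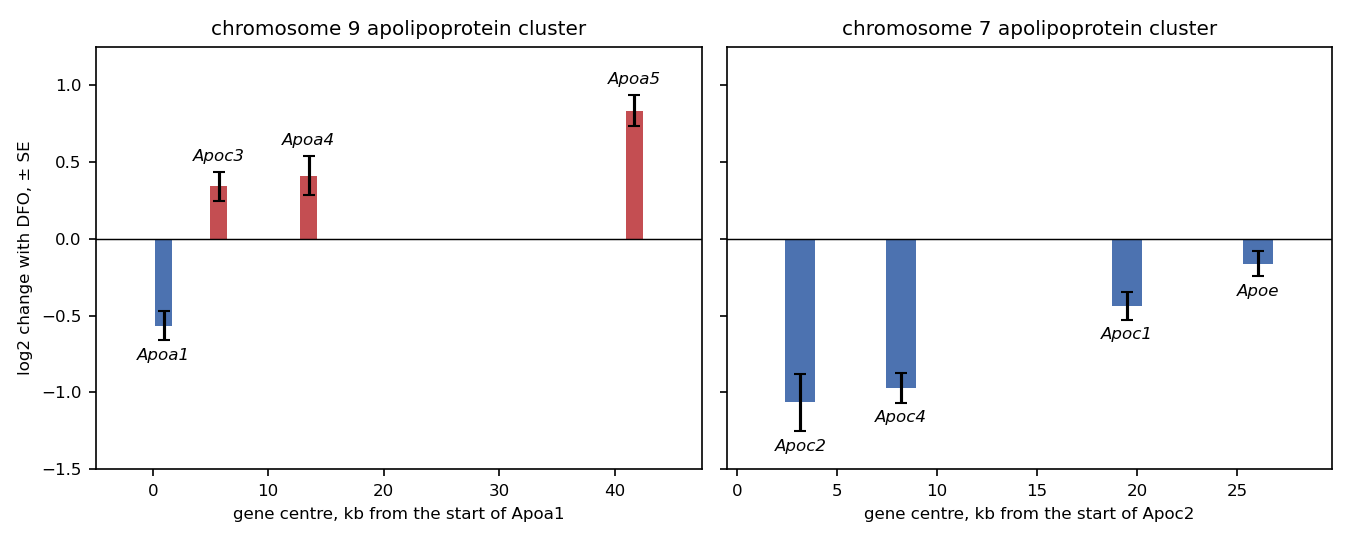
Log2 change with DFO (y axis, ± SE, edgeR) of the neighbouring apolipoprotein genes against the distance of each gene's centre from the start of the first gene (x axis, kb), on chromosome 9 (left) and chromosome 7 (right). Apoa1 (−0.57) points down beside Apoc3 (0.34), Apoa4 (0.41) and Apoa5 (0.84), whereas Apoc2, Apoc4, Apoc1 and Apoe all point down.

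The hepatocyte identity of the cultures was checked on other secreted proteins. Alb, which encodes albumin, stood at 3321 ± 204 FPKM in controls and 4159 ± 261 with DFO (log2 change 0.36 ± 0.06; edgeR adjusted p = 6.21e-05), while Ttr, which encodes transthyretin, went from 304.4 ± 32.7 to 249.9 ± 41.9 (−0.25 ± 0.10; 0.0453; lost in 8 of 12 fits that left out 1 library, all but those without control 4, control 6, DFO 5 or DFO 6). Of 15 hepatocyte markers, 9 rose and 1 fell, where 27.9% of all genes tested were higher and 30.1% lower. Relative to Alb within each library, Apoa1 fell from 0.0896 ± 0.00510 to 0.0468 ± 0.00626, without overlap (exact permutation p = 0.00216, adjusted p = 0.00649). Alb rose and Apoa1 fell in the same libraries, so the p-values of this ratio add no separate support. Macrophage markers were present as well, and 10 of 13 tested rose; their summed level was 131 to 154 FPKM in controls and 202 to 269 FPKM with DFO. The Kupffer cell gene Cd5l rose by 0.58 ± 0.08 on the log2 scale (edgeR adjusted p = 8.07e-06), whereas Clec4f had a log2 change of 0.16 ± 0.10 that did not pass (0.202). Endothelial markers (4 of 14 higher, Stab2 by 1.36 ± 0.11) had a summed level of 8.69 to 10.6 FPKM in controls and 10.3 to 13.4 with DFO. Stab2 itself was low, at 0.26 to 0.41 FPKM in controls and 0.64 to 0.83 with DFO. Stellate cell markers (3 higher and 1 lower of 6 tested) summed to 47.5 to 57.4 FPKM in controls and 66.0 to 81.0 with DFO. The lower was Col1a1 (log2 change −1.38 to −1.25 on leaving out 1 library). Dcn was higher by 1.45 ± 0.41 and, without DFO 1, by 0.85. Its level was low, 0.09 to 0.23 FPKM in controls and 0.18 to 0.98 with DFO, and Lrat was at 0.06 FPKM or less in every library. Cholangiocyte markers (1 higher and 1 lower of 4 tested) had larger sums, 237 to 274 FPKM in controls and 211 to 301 with DFO. Krt7 was the lower (log2 change −2.79 to −2.62 on leaving out 1 library) and Sox9 the higher (1.29 to 1.39). Lymphocyte (0.15 to 0.31 and 0.38 to 0.66 FPKM) and erythroid markers (0.99 to 1.48 and 0.84 to 3.38) were low. The part of these other cells in the apolipoprotein changes was not tested.

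Genes that act with the apolipoproteins moved in both directions in the hepatocytes, where 27.9% of all genes tested were higher and 30.1% lower. Of 11 tested other apolipoprotein genes, 4 rose and 4 fell (median log2 change −0.03), among them Apol7a (−0.68 ± 0.10) and the near-identical pair Apol9a and Apol9b (0.45 ± 0.07 each), whose counts are uncertain because reads may be shared. All 19 genes of this list summed to 6462 to 7259 FPKM in controls and 7714 to 9610 FPKM with DFO. The 10 members summed to less, 2733 to 3158 and 2072 to 2859 FPKM. Of 17 genes of lipoprotein assembly and secretion, 4 rose and 7 fell (median −0.10). Mttp, which loads lipid onto the Apob protein, fell by 0.62 ± 0.04 on the log2 scale (edgeR adjusted p = 3.25e-09), and its partner subunit gene P4hb, which also serves collagen prolyl hydroxylase, rose by 0.64 ± 0.05 (8.64e-09). Pla2g12b (−1.11 ± 0.09; 1.26e-08) and Tm6sf2 (−1.41 ± 0.15; 4.35e-07), both needed in mice for full lipid loading of secreted particles, fell too.

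Of 15 genes of HDL formation and remodelling, 5 rose and 9 fell (median log2 change −0.18), against 27.9% and 30.1% of all genes tested. The HDL-borne phospholipase Gpld1 fell (−0.92 ± 0.05; edgeR adjusted p = 1.21e-10), as did Pcolce2, an enhancer of procollagen cleavage (−0.81 ± 0.05; 7.29e-10), and Saa4, the constitutive serum amyloid A protein (−0.75 ± 0.06; 4.55e-09). Hepatic lipase, Lipc, rose (0.47 ± 0.08; 4.37e-05). Of 24 tested regulators of apolipoprotein genes, 7 rose and 11 fell (median −0.06). Hnf4a, a nuclear receptor that drives many hepatocyte genes, fell (−0.92 ± 0.05; edgeR adjusted p = 7.34e-11), and so did the bile acid receptor Nr1h4 (−0.63 ± 0.05; 1.11e-08). The repressor Nr1d1 (1.62 ± 0.08; 3.32e-11) and the transcription factor Foxo1 (0.85 ± 0.06; 2.11e-09) rose.

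As a description, the genes whose log2 CPM followed Apom most closely over the 12 hepatocyte libraries, among 10591 genes with a mean CPM of at least 5, were Ccnb2 (Pearson r = 0.997), Ppa1 (0.997) and Mthfd2 (0.995). For Apoa5 they were Yif1b (0.989) and Bcl3 (0.982). The 12 points share 2 treatment groups, so these values carry the difference between groups.

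The second comparison addressed how stellate cells respond to added iron. In all 10 libraries, Apoe and Apoc1 rose with iron and Apob fell, so that 3 of 10 members passed (edgeR), where 7.42% of 15502 genes tested did (4.05% higher, 3.37% lower). In the 7 libraries 8 members passed, Apoe and Apoc1 higher and Apob, Apoa1, Apoa2, Apoa4, Apoh and Apom lower, where 38.1% of 16287 genes did (18.3% higher, 19.8% lower). The members' median log2 change was −0.58 with 10 and −1.55 with 7 libraries, against −0.06 and 0.01 over all genes. Groups were apart for 4 of 10 members (Apoe, Apoc1, Apob and Apom) with 10 libraries, where 21.9% of genes were apart, and for 8 of 10 with 7 libraries, where 44.5% of the same genes were.

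Apoe was by far the most abundant member in these cultures too. Its FPKM in controls 1 to 5 was 99.3, 94.3, 36.5, 83.7 and 83.5, and in iron libraries 1 to 5 it was 444, 485, 829.2, 429.9 and 1216. Every iron library was above every control, and the highest were the odd libraries iron 3 and iron 5. For Apoe the log2 change was 3.15 ± 0.41 (edgeR adjusted p = 0.00118) with 10 libraries and 2.26 ± 0.08 (8.12e-10) with 7. Its share of the summed member FPKM went from 67.5% ± 1.86 in controls to 93.4% ± 1.14 with iron (SD, n = 5 each).

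The small neighbour gene Apoc1 moved with it. Its FPKM was 3.52, 6.78, 0.40, 4.28 and 6.71 in controls 1 to 5, and 14.4, 18.2, 40.3, 16.3 and 60.8 in iron libraries 1 to 5. The groups did not overlap, and control 3 (4 counts) and iron 5 were the extremes. For Apoc1 the log2 change was 2.85 ± 0.67 (edgeR adjusted p = 0.0271) with 10 libraries and 1.56 ± 0.21 (7.75e-05) with 7. With 10 libraries this call was lost when control 1 (adjusted p = 0.0811), control 2 (0.0553), control 4 (0.0751), control 5 (0.0533) or iron 3 (0.0675) was left out. The ratio of Apoc1 to Apoe was 0.04998 ± 0.0281 in controls and 0.0413 ± 0.00762 with iron and did not differ beyond its spread (exact permutation p = 1, where 0.00794 is the smallest possible). In the 7 libraries it was 0.0597 and 0.0360 (exact permutation p = 0.171, smallest possible 0.0571).

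Apob moved the other way. Its FPKM was 5.26, 3.55, 9.66, 2.42 and 3.51 in controls 1 to 5, and 0.95, 0.86, 0.86, 0.49 and 0.31 in iron libraries 1 to 5. The groups were apart, with the odd libraries control 3 highest and iron 5 lowest. The log2 change of Apob was −2.87 ± 0.45 (edgeR adjusted p = 0.00356) with 10 libraries and −2.31 ± 0.25 (1.03e-05) with 7.

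**Figure D4:**
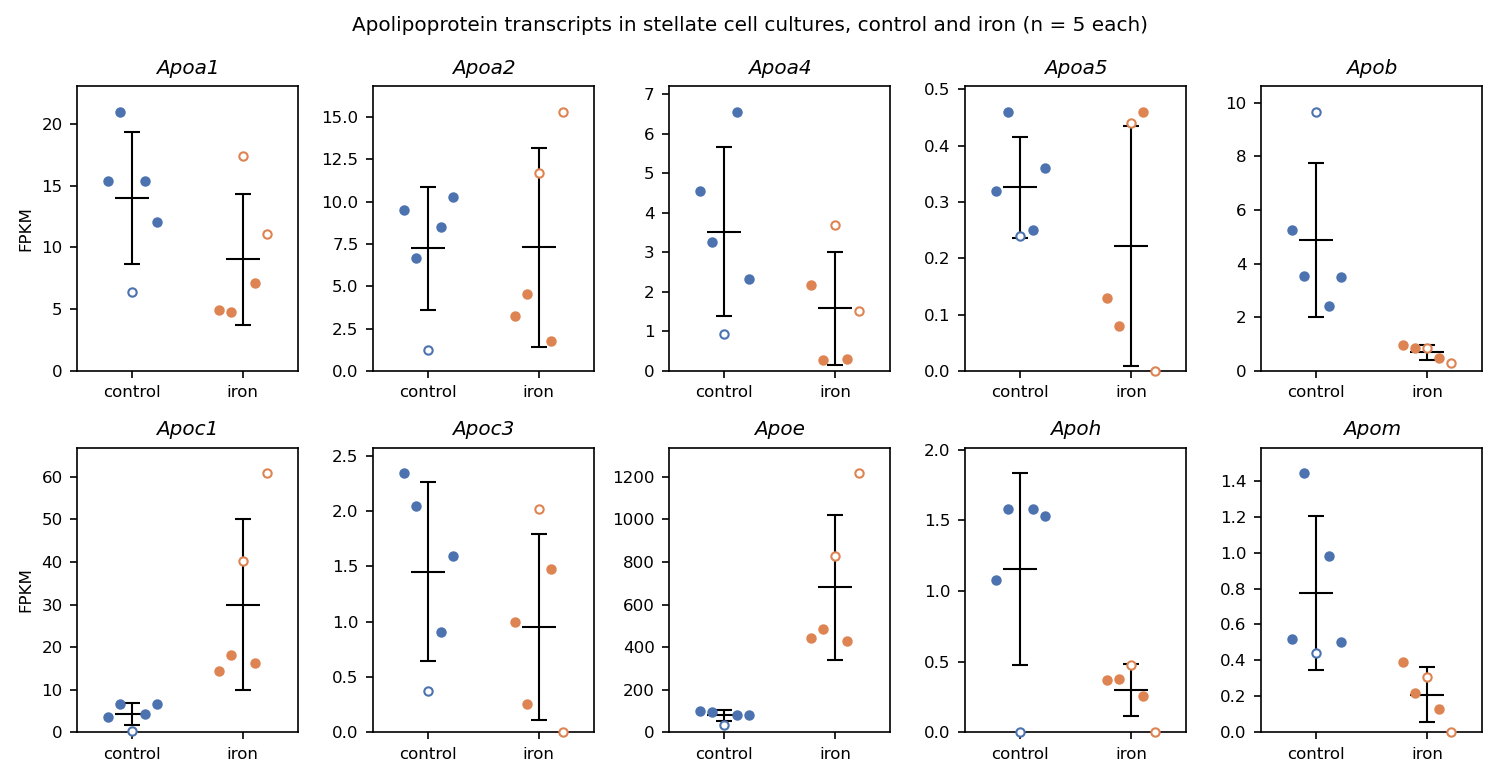
FPKM of each apolipoprotein gene (y axis, linear, starting at 0) in the 5 control (blue) and 5 iron (orange) stellate libraries; points are libraries, open points are control 3, iron 3 and iron 5, the bar is the mean and the whiskers are 1 SD. Apoe and Apoc1 lie higher and Apob and Apom lower with iron in every library, and for Apoa1 and Apoa2 the open iron points lie well above the filled ones.

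For the HDL scaffold genes the result differed with and without the odd libraries. Apoa1 stood at 15.4, 21.0, 6.36, 15.3 and 12.1 FPKM in controls 1 to 5, and at 4.91, 4.79, 17.4, 7.13 and 11.1 FPKM in iron libraries 1 to 5. Iron 3 and iron 5 lay among the controls and control 3 among the iron libraries, whereas the other 7 were apart. The log2 change of Apoa1 was −0.58 ± 0.44 (edgeR adjusted p = 0.417) with 10 libraries and −1.61 ± 0.20 (3.03e-05) with 7. Apoa2 stood at 9.47, 6.67, 1.24, 8.50 and 10.3 FPKM in controls and at 3.22, 4.52, 11.7, 1.78 and 15.3 FPKM in iron libraries. Iron 3 and iron 5 lay above every control and control 3 below every iron library, whereas the other 7 were apart with the controls higher. The log2 change of Apoa2 turned from 0.09 ± 0.68 (edgeR adjusted p = 0.944) with 10 libraries to −1.48 ± 0.28 (0.000867) with 7.

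Apom stood at 0.52, 1.44, 0.44, 0.98 and 0.50 FPKM in controls and at 0.39, 0.22, 0.31, 0.13 and 0 FPKM in iron libraries 1 to 5. The groups were apart, but each library held at most 33 Apom counts. The log2 change of Apom was −1.80 ± 0.70 (edgeR adjusted p = 0.129) with 10 libraries and −1.75 ± 0.55 (0.0241) with 7. Within the 7, leaving out 1 more library gave an adjusted p of 0.0167 to 0.0898, and 3 of 7 such fits kept the call, which was lost without control 2, control 4, iron 2 or iron 4.

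The remaining members were at or below a few FPKM. Apoa4 stood at 4.54, 3.27, 0.94, 6.55 and 2.32 FPKM in controls and at 2.17, 0.27, 3.68, 0.30 and 1.51 FPKM in iron libraries. Its groups overlapped in 10 libraries but not in 7, and its log2 change was −1.09 ± 0.75 (edgeR adjusted p = 0.362) and −2.15 ± 0.55 (0.00797). Within the 7 its iron level rested largely on iron 1, without which the log2 change was −3.92 (edgeR adjusted p = 8.85e-05). Apoh was at 1.08, 1.58, 0, 1.58 and 1.53 FPKM in controls and at 0.37, 0.38, 0.48, 0.26 and 0 FPKM in iron libraries. Apart from control 3, every control was above every iron library. Its log2 change was −1.91 ± 0.95 (edgeR adjusted p = 0.213) and −2.13 ± 0.32 (0.000151). In this table Prkca, on the other strand, had 7212 counts against 302 for Apoh, and here too reads of the overlap cannot be told apart without strand.

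Apoc3 was at 2.34, 2.05, 0.37, 0.91 and 1.59 FPKM in controls and at 1.00, 0.26, 2.02, 1.48 and 0 FPKM in iron libraries. Apoa5 was at 0.32, 0.46, 0.24, 0.25 and 0.36 FPKM in controls and at 0.13, 0.08, 0.44, 0.46 and 0 FPKM in iron libraries. Both sets overlapped with 10 and with 7 libraries. Neither passed: Apoc3 had log2 changes of −0.58 ± 0.86 and −1.05 ± 0.49 (edgeR adjusted p = 0.683 and 0.113), and Apoa5 of −0.54 ± 0.79 and −0.85 ± 0.56 (0.678 and 0.262). A count of 0 limits the level only to the value of 3 counts, which in iron 5 is 0.0986 FPKM for Apoa5, 0.245 for Apoc3, 0.246 for Apom and 0.156 for Apoh, and in control 3 is 0.140 for Apoh (counting error only). Of the chromosome 7 neighbours, Apoc4 had log2 changes of 0.26 ± 0.93 (edgeR adjusted p = 0.875) and −1.41 ± 0.48 (0.0326; lost in 5 of 7 fits that left out 1 more library, all but those without control 2 or iron 4, with log2 changes of −2.10 to −1.09), and Apoc2, with at most 7 counts in a library, was not tested.

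Markers of other cells moved with these changes. Over all genes tested, 4.05% were higher and 3.37% lower with 10 libraries, and 18.3% and 19.8% with 7. In the labelled cell type, Dcn, a matrix proteoglycan gene, ran from 212 through 313 to 341 FPKM in controls and from 5.47 through 91.9 to 97.2 FPKM with iron, and the 12 stellate markers summed to 1418 to 1772 FPKM in controls and 569 to 1047 FPKM with iron, 4 of them lower with 10 libraries and 10 with 7. Lrat, which stores retinol, fell by 3.02 ± 0.71 on the log2 scale (edgeR adjusted p = 0.0275), and by 2.35 ± 0.21 (1.67e-06) in the 7. Of the 10 fits that left out 1 library, 3 kept the call of Lrat (without iron 1, iron 2 or iron 5) and 1, that without iron 5, kept that of Dcn; in the 7 libraries all 7 such fits kept both.

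Macrophages are known to express Apoe and Apoc1. Macrophage markers summed to 143 to 219 FPKM in controls and 1552 to 2214 FPKM with iron, with 11 of 12 tested higher (13 of 13 in the 7 libraries). Clec4f was 0 to 0.19 FPKM in controls and 25.8 to 47.6 FPKM with iron, and Cd5l 1.37 to 3.82 and 214 to 371 FPKM. Endothelial markers summed to 27.9 to 37.3 FPKM in controls and 86.2 to 138 FPKM with iron, with 7 of 14 higher (14 of 14 in the 7), Stab2 by 2.97 ± 0.46 on the log2 scale. Of 4 cholangiocyte markers tested 1 was higher (1 higher and 2 lower of 5 in the 7), with sums of 6.54 to 8.36 and 7.99 to 27.7 FPKM. Lymphocyte and erythroid markers were too low to test. Their part in the rise of Apoe and Apoc1 was not tested.

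Hepatocyte markers were present at low levels and, in the 7 libraries, were mostly lower with iron, as 6 members were. They summed to 54.8 to 174 FPKM in controls and 41.8 to 124 FPKM with iron. Among them 1 of 14, Cps1, was lower with 10 libraries (a call kept in 1 of 10 fits that left out a library, that without iron 5), and 13 of 15 were lower with 7, where the sums were 115 to 174 and 41.8 to 76.5 FPKM. Alb was at 61.7, 47.6, 30.4, 36.6 and 42.4 FPKM in controls and at 36.8, 15.8, 27.4, 12.2 and 15.2 FPKM in iron libraries, a log2 change of −1.03 ± 0.32 (edgeR adjusted p = 0.0766) with 10 libraries and −1.19 ± 0.29 (0.00579) with 7, or −1.79 without iron 1. Ttr had log2 changes of −0.23 ± 0.49 (edgeR adjusted p = 0.782) and −0.80 ± 0.28 (0.0367; lost in 5 of 7 fits that left out 1 more library, all but those without control 4 or iron 1). The part of hepatocyte RNA in the apolipoprotein values was not tested.

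Levels were also set against Alb within each library. The ratio of Apoe to Alb was 1.61, 1.98, 1.20, 2.28 and 1.97 in controls 1 to 5, and 12.1, 30.8, 30.2, 35.2 and 80.0 in iron libraries 1 to 5, without overlap (exact permutation p = 0.00794; adjusted p = 0.0106). Apoc1 to Alb went from 0.0976 ± 0.0609 to 1.67 ± 1.37, also without overlap (exact permutation p = 0.00794; adjusted p = 0.0106). Apob to Alb went from 0.125 ± 0.108 to 0.0344 ± 0.0133, again without overlap (exact permutation p = 0.00794; adjusted p = 0.0106). Apoe and Apoc1 rose without overlap while Alb had a negative log2 change, so p-values of their ratios to Alb add no separate support. With 7 libraries the mean ratios were 1.96 and 26.0 for Apoe, 0.119 and 0.961 for Apoc1 and 0.0772 and 0.0400 for Apob, still apart, each with an exact permutation p of 0.0571, the smallest possible.

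By contrast, Apoa1 to Alb was 0.321 ± 0.103 in controls and 0.477 ± 0.249 with iron (exact permutation p = 0.452; adjusted p = 0.494), and 0.348 and 0.340 with 7 libraries (exact permutation p = 0.743). The ratio of Apoa1 to Apoa2 was 2.57 ± 1.60 in controls and 1.76 ± 1.30 with iron (exact permutation p = 0.294; adjusted p = 0.352). In the 7 libraries it was 1.94 and 2.20 (exact permutation p = 1). Missing the threshold does not show that these ratios were equal.

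**Figure D5:**
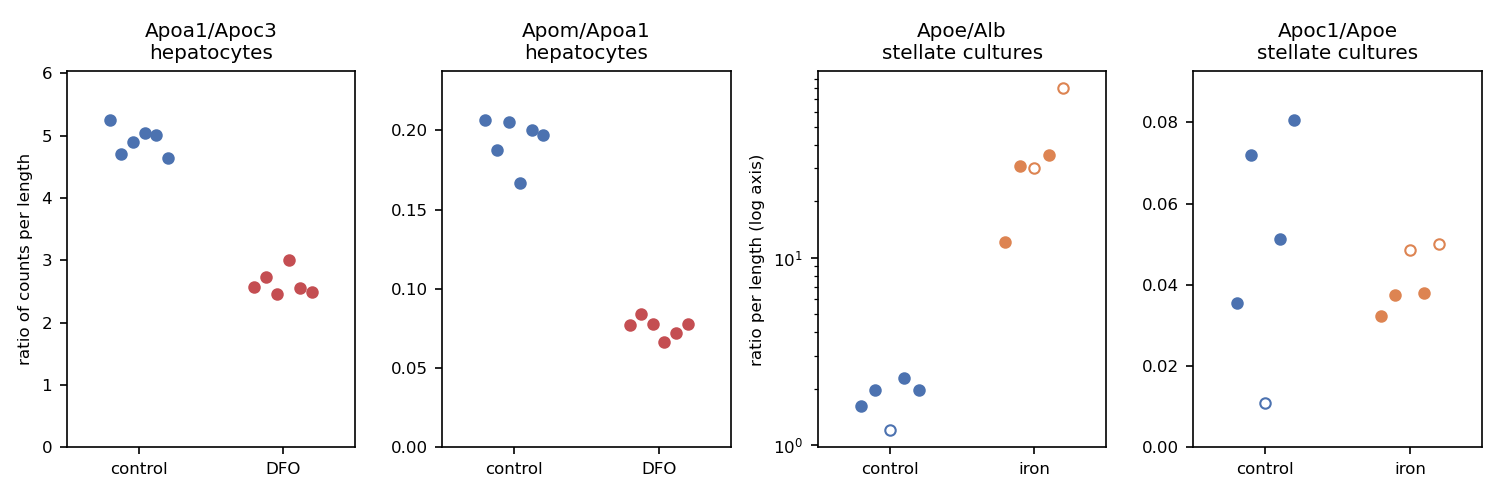
Ratios of levels per length within each library (y axes, the third on a log scale): Apoa1 to Apoc3 and Apom to Apoa1 in hepatocytes, Apoe to Alb and Apoc1 to Apoe in stellate cultures; points are libraries, and open points are control 3, iron 3 and iron 5. The first 3 ratios are apart between groups (4.92 and 2.63, 0.194 and 0.0759, 1.81 and 37.7 on average), and the last overlaps.

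Genes that act with the apolipoproteins were also tested in the stellate cultures, where 7.42% of all genes were called with 10 libraries and 38.1% with 7. Of 12 other apolipoprotein genes 0 passed in edgeR, with 1 at an unadjusted p under 0.05, and DESeq2 called 1 (median log2 change 0.29 in edgeR). In the 7 libraries 1 rose and 5 fell (median −0.44), led by Apol6 (−1.12 ± 0.25), Apol9b (−0.59 ± 0.16) and Apof (−1.99 ± 0.59). The call of Apof was lost without iron 1 (edgeR adjusted p = 0.0969) or iron 2 (0.0954), and without iron 4 its log2 change was −2.85. Of 16 assembly and secretion genes, A1cf, a cofactor of Apob mRNA editing, fell (−3.56 ± 0.70; edgeR adjusted p = 0.0117), alone among them (median −0.28). With 7 libraries 1 rose and 10 fell (median −0.28): the editing enzyme gene Apobec1 rose (1.12 ± 0.10; edgeR adjusted p = 1.57e-06) and A1cf fell (−2.76 ± 0.45; 0.000313).

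Of 10 HDL genes tested in 10 libraries, 2 rose and 1 fell (median log2 change −0.06). Abcg1, which exports cholesterol to HDL, rose (1.84 ± 0.25; edgeR adjusted p = 0.00147), as did Pcolce2 (0.77 ± 0.21; 0.0486; kept in 1 of 10 fits that left out a library, that without iron 5), and the HDL receptor Scarb1 fell (−1.18 ± 0.13; 0.000487). In the 7 libraries 4 of 12 rose and 7 fell (median −0.32), with Abcg1 at 2.05 ± 0.18, Pcolce2 at 0.82 ± 0.10, Scarb1 at −1.17 ± 0.07 and Abca1, which lipidates the Apoa1 protein, at 1.52 ± 0.21. Of 23 regulators, Cebpa rose (1.09 ± 0.19; edgeR adjusted p = 0.00604), Rora (−2.003 ± 0.40; 0.0123) and Srebf2 (−0.93 ± 0.17; 0.0089) fell (median −0.40). With 7 libraries 5 rose and 13 fell (median −0.32), including Nr1h4 (−1.17 ± 0.13; edgeR adjusted p = 1.14e-05).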

How the data were processed

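Whole-number read counts per gene and FPKM values were deposited by the authors for each library, in separate tables for hepatocytes and stellate cells. Recomputed from the counts, exonic lengths and library totals, FPKM above 1 differed by at most 0.494%. The submitters' processing notes name the mm10 build, HISAT2 2.0.1 and cutadapt 1.9.1; how reads were counted, and on which strand, is not given in the sources used here. Coordinates are those of the deposited tables.

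Each cell type was fitted alone with edgeR 4.0.16 (R 4.3.3; TMM, filterByExpr, quasi-likelihood test, Benjamini-Hochberg, threshold 0.05) on the counts; all 10 members passed the filter in both. The SE of a log2 change is implied by its F value. Groups are called apart on TMM CPM. Alternatives were DESeq2 1.42.0, its size factors in edgeR, no filter, limma 3.58.1 on log2(FPKM + pseudocount), with 1 and 0.1 as pseudocounts and a minimum FPKM of 0.5 in as many libraries as the smaller group, voom with library weights, a replicate block, leaving out libraries and, added after seeing the data, offsets smoothed on gene length. The edgeR step was tested on simulated data. Within-library ratios were compared with exact two-sided permutation tests of mean log2 ratios. No pair of replicates agreed within sampling noise (chi-square over degrees of freedom at least 3.23).

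The members, the gene lists, the markers and the ratios were chosen with earlier results of these data known. Beside the members, up to 4 genes of smallest p are named from each list of interacting genes, with Apoc2, Apoc4 and set markers whatever their values; for Apom and Apoa5, the largest decrease and increase in hepatocytes, the 3 genes of highest Pearson correlation are named, except 1 that is not reported here.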

Additional observations from a re-analysis of the deposited data

Results flagged for a closer look

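In 40 sets of 1 gene in 1 group, the highest or lowest library was compared with the spread of the others (Dixon's test at 95%), and 3 stood out; chance alone gives about 1 in 20. Apoa2 in hepatocyte library DFO 6 was 131.22 FPKM, with a gap to the next library of 0.842 of the whole range. Apoc1 in hepatocyte control 6 was 186.84 FPKM, with a gap of 0.636. Apoe in stellate control 3 was 36.51 FPKM, with a gap of 0.747.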

How the results depend on the processing

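Libraries of a group spread in the hepatocytes, and the stellate cultures had low counts of several members and 3 odd libraries. The part of each in the precision was not tested. For hepatocytes, the counts of genes and of members called stayed within 1.5 times under every alternative run, and of 200 refits of single members 190 kept call and direction, 6 lost and 4 gained a call, and 0 changed sign. The losses were those of Apob named above and of Apoh with the replicate block (adjusted p = 0.0514).

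For the stellate cultures, 3 members were called with all libraries, against 10 with voom weights, 8 with 7 libraries, 8 with 7 libraries and length-smoothed offsets, and 7 to 9 on leaving out 1 of the 7. Over all genes 1151 were called, against 2924 with DESeq2, 6319 with voom weights, 6212 with 7 libraries, 6615 with length smoothing in these, 5069 to 6626 on leaving out 1 of the 7, and 605 (without control 1) to 2462 (without iron 5) on leaving out 1 of the 10. Control 2, control 4, control 5 and iron 4 also moved that count by over 1.5 times, to 619, 638, 685 and 686. Length smoothing moved the median log2 change of all genes from −0.06 to 0.13. The cause of these shifts was not tested.

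The log2 change of Apoa2 in the stellate cultures changed sign, from 0.09 to −0.10 with limma on log2(FPKM + 1), −0.11 with log2(FPKM + 0.1), −1.35 with voom weights, −0.10 with length smoothing, −1.48 with 7 libraries and −1.61 with length smoothing in these; leaving out 1 library gave −0.42 to 0.34, and 1 of the 7 −1.80 to −1.25. Ratios that changed sign were Apoc1 to Apoe in stellate cultures (log2 difference −0.01; −0.48 to 0.24 on leaving out 1 library) and, in the 7 libraries, Apoa1 to Alb (0.40 to −0.24) and Apoa1 to Apoa2 (−0.60 to 0.037).

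Replicate numbers did not pair the libraries (correlation of same-numbered deviations −0.24 to −0.00 in hepatocytes, −0.32 to 0.12 in stellate cultures). With the replicate block 8235 genes were called in hepatocytes, against 9088, and 175 in stellate cultures; Apoa2 there was −0.27 and Apoc1 lost its call (adjusted p = 0.189).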
